A study of Mus musculus with 6 samples.

Results

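The semaphorin system of mouse embryo fibroblasts was examined in 6 cell lines through 31 genes: 20 semaphorin ligands, 9 plexin receptors and 2 neuropilin co-receptors, of 49315 genes counted. The genes were taken by symbol as the whole family, and no measured value entered the choice of a single gene. The family as a whole was chosen by a proposal made with knowledge of the fold changes and adjusted p-values between SG and WT lines in these counts, so its values in that comparison are a description and support nothing. The 6 libraries were made from polyadenylated RNA of untreated lines at passage 4, each grown from 1 embryo of the C57BL/6 strain. All 6 lines lacked p53 (p53-/-). The lines SG1, SG2 and SG3 were homozygous for MDMX-SG, a knock-in allele of MDMX with the substitutions W201S and W202G. The lines WT3, WT9 and WT11 carried wild-type MDMX (MDMXWT/WT). MDMX, encoded by Mdm4, is a partner of p53 that also binds the kinase CK1-alpha, and the study asked which transcripts the mutation affects where p53 is absent. A replicate is thus an embryo, with 3 per genotype.

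Semaphorins are cell guidance cues, first known from growing axons, that share a ligand domain called the sema domain. Those of class 3 are secreted, those of classes 4 to 6 span the membrane and Sema7a is held by a lipid anchor. They act on plexins, transmembrane receptors whose inner part switches off small GTPases of the Ras and Rap type and so alters adhesion and the cytoskeleton. Most class 3 ligands reach A plexins only through a neuropilin, and neuropilins also bind growth factors of the VEGF family. In mesenchyme the system is known for steering nerves, vessels and migrating neural crest cells.

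Total counts lay between 49317925 and 65457242 per line. Xist, the RNA of X inactivation, was at 399 CPM (counts scaled by library size) in SG1 and 343 in WT9 and at no more than 0.7 in the other 4 lines, so each genotype held 1 line with Xist. Fibroblast markers were plentiful, with summed levels of the 9 genes between 7308 and 8527 TPM (transcript counts scaled by gene length and library size). The 9 endothelial markers summed to 22.5 to 28.5 TPM in SG and 18.3 to 24.2 TPM in WT lines. Most of this was Kdr, at 13.9 to 25.8 TPM, with Erg at 1.41 to 3.61 TPM, while Pecam1 was at no more than 0.092 TPM, Tie1 at no more than 0.021 TPM and Cldn5 at no more than 0.077 TPM. The summed level of 9 macrophage and blood cell markers was 57.9 to 128 TPM in SG and 23.3 to 69.2 TPM in WT lines, highest in SG3 and lowest in WT11. Of the 8 tested, 8 had log2 fold changes above 0, as had 8143 of all 16068 genes tested, and edgeR called 0 (1.9% of all genes). The summed level of 9 neural and glial markers was 369 to 382 TPM in SG and 289 to 352 TPM in WT lines. Of the 8 tested, edgeR called 0 (1.9% of all genes), and 4 had values above 0 and 4 below. Log2 fold changes were 0.51 for Nes, which led the sum, -2.89 for Sox2, -0.60 for Map2 and -0.16 for Tubb3. DESeq2 called 2 higher and 2 lower (2.68% and 3.22% of all genes). Lines did not overlap in 2 with SG higher and 3 with SG lower (10% and 11.2% of all genes). An unadjusted edgeR p under 0.05 was reached by 5 (15.5% of all genes). The 8 epithelial markers summed to 98.9, 97.3 and 42.0 TPM in SG1, SG2 and SG3, against 50.5, 55.5 and 27.2 TPM in WT3, WT9 and WT11. Reads of Krt5 were in SG1 and SG2 only, and Krt14 had a log2 fold change of 2.33. Of the 6 tested, 5 had values above 0 and 1 below. By edgeR 0 were called (1.9% of all genes), and by DESeq2 1 higher (2.68% of all genes). Lines did not overlap in 2 with SG higher and 0 with SG lower (10% and 11.2% of all genes). The 6 pericyte markers summed to 160 to 212 TPM in SG and 138 to 203 TPM in WT lines. Of the 5 tested, 5 had values above 0 and edgeR called 0 (1.9% of all genes). Muscle markers (7 genes, nearly all Des) summed to 15.6 to 23.6 TPM in SG and 7.45 to 14.6 TPM in WT lines, with Pax7 at 0 throughout. Of the 2 tested, edgeR called 0 (1.9% of all genes). Lines did not overlap in 2 with SG higher (10% of all genes), and 2 had an unadjusted edgeR p under 0.05 (15.5% of all genes). The part of these cells in the results was not tested. In bulk RNA, fewer cells of a type and less RNA per cell cannot be told apart.

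The fibroblasts carried transcripts for nearly the whole system, with receptors above ligands. Sums over the family were 187 to 203 TPM for the semaphorins, 250 to 299 TPM for the plexins and 89.5 to 143 TPM for the neuropilins. Plxnb2, a receptor of class 4 semaphorins, was the highest member, at 127 to 149 TPM over the 6 lines. Plxna1, the main A plexin here, stood at 79.6 to 99.5 TPM. Nrp1, the co-receptor of Sema3a, stood at 62.0 to 97.5 TPM, a range that overlaps that of Plxna1. Together Plxna1 and Plxnb2 held between 82.7% and 85.2% of the plexin sum. Of the other plexins, Plxna3 reached 14.9 to 19.3 TPM, while Plxnb1, Plxnd1 and Plxna2 lay between 4.32 and 11.8 TPM. Plxnc1 and Plxna4 lay near 1 TPM, and Plxnb3 had between 1 and 3 reads per library.

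Among the ligands, secreted class 3 semaphorins made up between 65.5% and 69.9% of the semaphorin sum in every line. Sema3a, the classical growth cone repellent, led with 34.5 to 54.7 TPM. Sema3f, which signals through Nrp2, followed at 27.3 to 36.7 TPM, and Sema3c, of heart and neural crest development, stood at 20.4 to 25.1 TPM. Sema3e, the ligand of Plxnd1 in vessel patterning, ranged more widely, from 12.0 to 31.4 TPM, so its place relative to Sema3c and Sema3f differed from line to line. Sema4c, a ligand of Plxnb2, at 17.9 to 21.3 TPM, was the highest membrane semaphorin. Sema4b and Sema7a also averaged above 10 TPM. Sema4a, Sema5b and Sema3g averaged below 1 TPM.

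**Figure D1:**
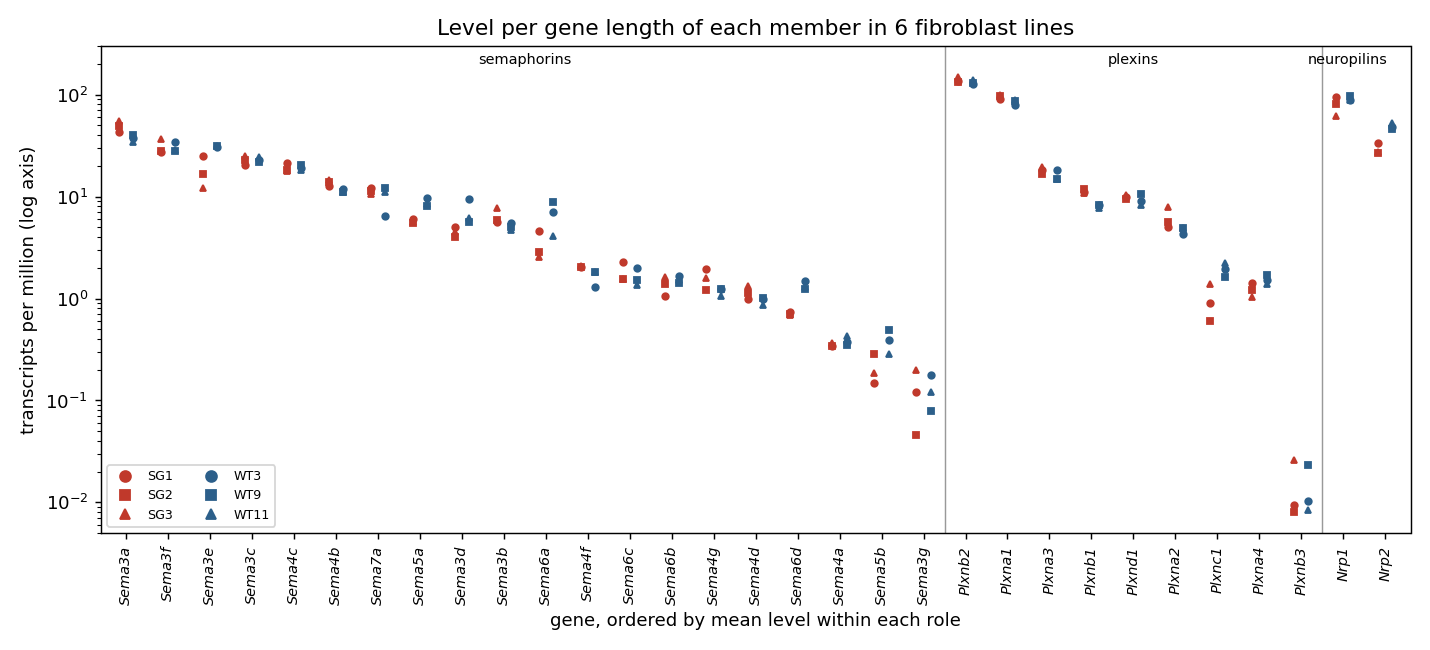
Level per gene length (TPM, log axis) of the 31 genes in each of the 6 lines; red symbols are SG lines, blue symbols WT lines, 1 symbol per library. Plxnb2, Plxna1 and Nrp1 lead the receptors, Sema3a leads the ligands, and Plxnb3 lies lowest, at 1 to 3 reads per library.

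Of the 31 genes, 29 had enough reads to be tested between genotypes; Sema3g (4 to 16 reads per library) and Plxnb3 were not. With an adjusted p under 0.05 over all 16068 genes tested (edgeR quasi-likelihood test), 1 gene was higher in SG lines, the plexin Plxnb1, and 3 were lower, the neuropilin Nrp2 and the ligands Sema5a and Sema6d. Over all genes tested 1.9% were called, 0.809% higher and 1.1% lower. In 5 of the 29 genes every SG line lay above every WT line and in 8 every SG line lay below. Over all genes tested the lines of the genotypes did not overlap in 21.2%, with SG higher in 10% and lower in 11.2%. The median log2 fold change (SG minus WT) of the 29 was 0.01, against 0.00 for all genes tested, with 15 above 0 and 14 below. The median of its absolute size was 0.32, against 0.09 for all genes tested. All 4 calls were lost without SG2, without WT3 and without WT11, where adjusted p lay between 0.0510 and 0.0940; they held without SG1, SG3 or WT9, and without SG1 and WT9 together.

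The promoter windows of these 4 genes are shown because they are the members whose transcripts differed between genotypes. Each window holds 200 bases that end 50 bases ahead of the RefSeq start site (GRCm38.p6, plus strand for all 4), so it lies outside the transcribed part of the counted gene model. The windows are chr1:62703067-62703266 for Nrp2, chr9:109095186-109095385 for Plxnb1, chr15:32244563-32244762 for Sema5a and chr2:124089719-124089918 for the most upstream start of Sema6d. Capitals mark the letters GGGCGG (the GC box, bound by SP factors), CTTTGA (the core of sites of TCF/LEF factors, partners of beta-catenin) and TATAAA (the TATA box) on either strand; neighbouring GC boxes can overlap.
Nrp2: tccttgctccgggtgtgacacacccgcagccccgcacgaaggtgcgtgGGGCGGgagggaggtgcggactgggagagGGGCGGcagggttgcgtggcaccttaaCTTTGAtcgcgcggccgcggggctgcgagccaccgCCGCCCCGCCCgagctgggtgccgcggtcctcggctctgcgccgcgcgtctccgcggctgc
Plxnb1: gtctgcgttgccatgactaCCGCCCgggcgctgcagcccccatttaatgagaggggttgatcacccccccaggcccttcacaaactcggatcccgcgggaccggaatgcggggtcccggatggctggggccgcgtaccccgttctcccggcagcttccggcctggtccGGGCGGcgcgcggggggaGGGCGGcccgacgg
Sema5a: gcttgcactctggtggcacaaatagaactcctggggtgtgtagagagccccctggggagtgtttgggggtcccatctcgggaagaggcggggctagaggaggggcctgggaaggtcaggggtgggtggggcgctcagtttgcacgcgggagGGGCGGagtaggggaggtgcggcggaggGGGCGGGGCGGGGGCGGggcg
Sema6d: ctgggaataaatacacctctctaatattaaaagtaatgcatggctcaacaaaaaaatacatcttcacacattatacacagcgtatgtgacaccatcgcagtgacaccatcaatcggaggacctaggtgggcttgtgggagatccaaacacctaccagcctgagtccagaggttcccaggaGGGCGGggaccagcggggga
All 4 windows hold a GC box, none holds a TATA box, and that of Nrp2 alone holds a TCF/LEF core. Over 32851 RefSeq windows of the same length, 24.6% hold the GC box letters, 11.8% the TCF/LEF core and 9.14% the TATA box. Of the 26 family members with a window, 17 hold a GC box in at least 1 of theirs, 2 (Nrp2 and Sema3e) a TCF/LEF core and 0 a TATA box. These counts are per member, and some members have several of the 37 windows, so they are not comparable with the shares per window. CpG pairs number 28 in the Nrp2 window, 23 in that of Plxnb1, 12 in that of Sema5a and 5 in that of Sema6d, with a median of 4 over all windows. A match of letters does not show binding. The 50 bases next to the start were not searched, so a TATA box there would be missed. Gene-level counts do not show which start of Sema6d was used. RefSeq lists a further start for it inside the gene, whose window (chr2:124653331-124653530) holds no GC box.

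The co-receptor Nrp2 was lower in the MDMX-SG lines. Nrp2 (ENSMUSG00000025969, chromosome 1, 62703285 to 62818695 on GRCm38) binds Sema3f and Sema3c, and VEGF-C on lymphatic vessels. It stood at 117, 96.1 and 98.2 CPM in SG1, SG2 and SG3, and at 168, 163 and 189 CPM in WT3, WT9 and WT11. Every SG line thus lay below every WT line, with means of 104 ± 11.3 and 173 ± 13.7 CPM (SD, n = 3 each), a 1.67-fold lower level in SG (log2 fold change -0.74, SE 0.09, edgeR adjusted p = 0.0126). Nrp2 shares chromosome 1 with Mdm4, the mutated gene, as do Plxna2 and Sema4c, which were not called; their starts lie 70.3, 61.7 and 96.4 Mb from that of Mdm4.

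Nrp1, its relative, did not pass. It stood at 275, 238 and 183 CPM in SG1, SG2 and SG3 and at 258, 287 and 263 CPM in the WT lines, so SG1 lay among the WT lines and SG3 was the lowest of all (log2 fold change -0.21, 95% interval -0.52 to 0.09). As a share of the neuropilin TPM, Nrp2 made up 25.9%, 25.0% and 30.7% in the lines SG1 to SG3, against 35.0%, 32.0% and 37.3% in WT3, WT9 and WT11. The neuropilin sum was below that of every WT line in each SG line, at 128, 107 and 89.5 TPM against 136, 143 and 140 TPM. Its low values in SG2 and SG3 combine both genes, while in SG1 only Nrp2 lay below the WT lines.

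Plxnb1 was the 1 plexin past the threshold. It encodes the receptor of Sema4d, which acts on RhoA through the exchange factors encoded by Arhgef11 and Arhgef12 (ENSMUSG00000053646, chromosome 9, 109095389 to 109119917). Its level was 31.4, 34.1 and 31.3 CPM in SG1, SG2 and SG3 against 23.6, 23.9 and 22.8 CPM in WT3, WT9 and WT11. The 3 values of each genotype lay close together and apart from the other, a 1.38-fold higher level in SG (log2 fold change 0.46, SE 0.05, edgeR adjusted p = 0.0106). Of its exon bases, 257 overlap Gm7628 on the other strand, and without a stated strand setting their reads cannot be told apart. Sema4d, its ligand, was scarce, with 1.90 to 2.60 CPM in SG and 1.68 to 1.97 CPM in WT lines (edgeR adjusted p = 0.48). Arhgef11 and Arhgef12 had log2 fold changes of -0.05 and -0.03 and did not pass.

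The other B plexins and the A plexins showed no call. Plxnb2 stood at 285, 287 and 319 CPM in SG lines and 269, 279 and 303 CPM in WT lines, overlapping, with a 95% interval of the log2 fold change from -0.08 to 0.20. Plxna1, the receptor of Sema6d and, with Nrp1, of Sema3a, stood at 245, 268 and 272 CPM in SG and 214, 236 and 246 CPM in WT lines, with SG1 below WT11. Its log2 fold change of 0.17 (95% interval 0.03 to 0.32) missed the threshold after adjustment (edgeR adjusted p = 0.229). In Plxna1, 2502 exon bases overlap Gm26811 on the other strand. Plxna2, a receptor of Sema6a, was at 41.2 CPM in SG3 and between 22.0 and 29.3 CPM in the other 5 lines, so its log2 fold change of 0.38 fell to 0.16 without SG3. Summed, the A plexins stood at 116, 122 and 128 TPM in SG lines and 104, 108 and 111 TPM in WT lines, without overlap. Plxna3, on the X chromosome, stood at 39.8 to 45.8 CPM in SG and 35.2 to 42.8 CPM in WT lines, and the lines with Xist were not its highest. Plxna4, an A plexin of sensory neurons, was at 4.40 to 5.93 CPM in SG and 5.95 to 7.28 CPM in WT lines, and it did not pass (edgeR adjusted p = 0.292).

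Plxnc1, the receptor of Sema7a, known from immune cells and melanocytes, was low and varied among SG lines. It stood at 2.10, 1.43 and 3.27 CPM in SG1, SG2 and SG3 and at 4.58, 3.84 and 5.30 CPM in WT3, WT9 and WT11. The genotypes did not overlap, but the call was missed (log2 fold change -1.01, SE 0.28, edgeR adjusted p = 0.128) and was made without SG3, without a count filter and by DESeq2. Macrophage markers, highest in SG3 and lowest in WT11 of all lines, stood beside the highest Plxnc1 of the SG lines in SG3 and the highest of all in WT11, and their part in the result was not tested. Plxnd1, the receptor of Sema3e, stood at 20.8 to 22.8 CPM in SG and 18.4 to 23.1 CPM in WT lines (95% interval of the log2 fold change -0.11 to 0.29).

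**Figure D2:**
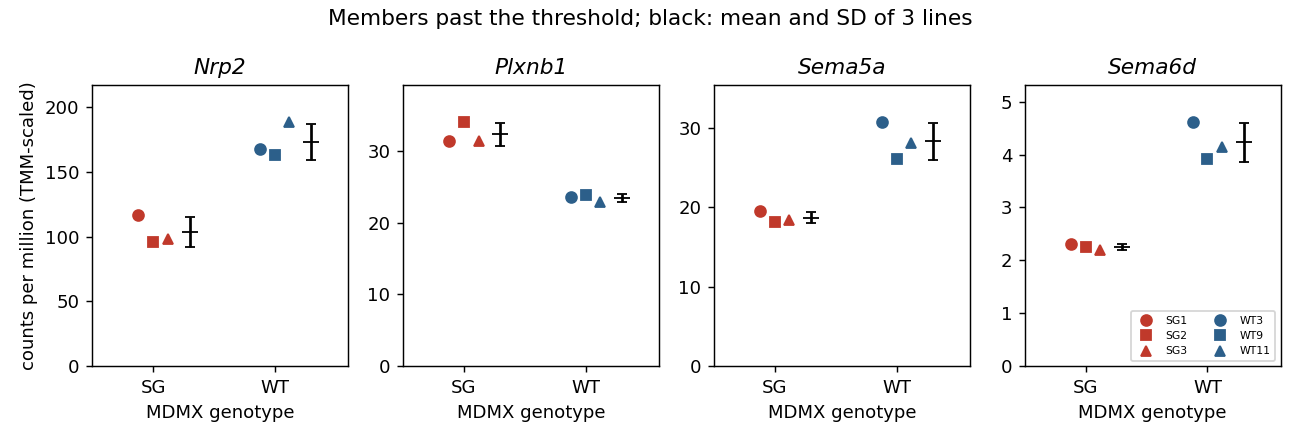
CPM (TMM-scaled) of Nrp2, Plxnb1, Sema5a and Sema6d in each line, with SG lines in red and WT lines in blue; black marks show the mean and SD of 3 lines, and each axis starts at 0. Nrp2, Sema5a and Sema6d lie lower in all 3 SG lines, Plxnb1 higher, with no overlap between genotypes.

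On the ligand side, Sema5a and Sema6d were lower in SG lines. Sema5a (ENSMUSG00000022231, chromosome 15, 32244813 to 32696341) encodes a membrane semaphorin with thrombospondin repeats and a role in neurite guidance. It stood at 19.5, 18.1 and 18.4 CPM in SG1, SG2 and SG3 and at 30.8, 26.1 and 28.1 CPM in WT3, WT9 and WT11. The SG lines agreed closely, all below the WT lines, and the level was 1.51-fold lower (log2 fold change -0.60, SE 0.07, edgeR adjusted p = 0.0123). Plexin B3, a known receptor of Sema5a, was close to absent at the transcript level (Plxnb3, 1 to 3 reads per library).

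Sema6d (ENSMUSG00000027200, chromosome 2, 124089969 to 124667770), a ligand of plexin A1 in heart and immune cells, was low throughout. Its level was 2.30, 2.26 and 2.19 CPM in SG1, SG2 and SG3, from 127 to 144 reads, against 4.62, 3.91 and 4.15 CPM in WT3, WT9 and WT11, from 231 to 256 reads. All WT lines lay above the SG lines, and the level in SG was 1.88-fold lower (log2 fold change -0.91, SE 0.12, edgeR adjusted p = 0.0171). Its relatives in class 6 did not pass. Sema6a, a ligand of plexins A2 and A4, stood at 11.8, 7.51 and 6.76 CPM in SG1, SG2 and SG3 and at 18.4, 23.5 and 10.9 CPM in WT3, WT9 and WT11. Within each genotype the line with Xist, SG1 or WT9, was its highest, and SG1 lay above WT11. Its log2 fold change of -1.02 had an edgeR adjusted p of 0.148, and of 0.0374 with a term for the lines with Xist, in a range of 0.00878 to 0.401 over all alternatives. Sema6b and Sema6c had log2 fold changes of -0.18 and 0.15 with overlapping lines, and that of Sema6c fell to -0.05 without SG1 and -0.09 without SG1 and WT9.

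Class 3 semaphorins did not move as a class. Their sum stood at 127, 126 and 141 TPM in SG lines and at 140, 132 and 130 TPM in WT lines, overlapping, while its makeup differed. Sema3a stood at 177, 207 and 229 CPM in SG1, SG2 and SG3 and at 154, 166 and 146 CPM in WT3, WT9 and WT11. Every SG line lay above every WT line, but the call was missed (log2 fold change 0.40, SE 0.09, edgeR adjusted p = 0.0792); DESeq2 gave an adjusted p of 0.000437 edgeR without SG1 and WT9 one of 0.00659, and the range over all alternatives was 0.000437 to 0.25. Sema3e stood at 68.8, 46.6 and 33.7 CPM in SG1, SG2 and SG3, against 83.9, 87.7 and 87.7 CPM in WT3, WT9 and WT11. The WT lines were close to each other and the SG lines spread below them, with a log2 fold change of -0.80 (SE 0.22, edgeR adjusted p = 0.122) that became -1.10 without SG1 (edgeR adjusted p = 0.00587, with 0.00424 to 0.355 over all alternatives). As a share of class 3 TPM, Sema3a was 34.1% to 39.0% in SG and 26.6% to 30.3% in WT lines, and Sema3e 8.54% to 19.8% in SG and 21.7% to 23.9% in WT lines.

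Of the remaining class 3 genes, Sema3d, which lies near Sema3a and Sema3e on chromosome 5, was at 10.3 to 12.8 CPM in SG lines and at 24.0, 14.5 and 16.0 CPM in WT3, WT9 and WT11. WT3 stood apart, and the log2 fold change of -0.64 became -0.39 without it (edgeR adjusted p = 0.14 with all lines). Every SG line lay below every WT line, and DESeq2 (adjusted p = 0.00548) and edgeR without a count filter (adjusted p = 0.0113) called it lower, in a range up to 0.391 over all alternatives. Sema3c, on the same chromosome, and Sema3f had log2 fold changes of -0.02 and 0.01, with 95% intervals of -0.22 to 0.18 and -0.28 to 0.30, and both changed sign when single lines were left out. The 4 chromosome 5 genes thus held values of both signs. Sema3b was at 7.92 to 11.2 CPM in SG and 6.91 to 7.74 CPM in WT lines, and it did not pass (edgeR adjusted p = 0.281).

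In class 4 no gene passed with all lines in edgeR, and the class sum stood at 36.9 to 39.2 TPM in SG and 33.4 to 35.6 TPM in WT lines, without overlap. Sema4b was at 21.0, 23.6 and 24.9 CPM in SG1, SG2 and SG3, against 19.8, 18.6 and 19.2 CPM in WT3, WT9 and WT11. Each SG line lay above the WT lines, a 1.20-fold difference that missed the threshold (log2 fold change 0.27, SE 0.07, edgeR adjusted p = 0.108). It was called by DESeq2 (adjusted p = 0.0335), without a count filter (0.0496) and without SG1 (0.0295), in a range up to 0.318 over all alternatives. Sema4c was level between genotypes, at 24.8 to 28.9 CPM in SG and 25.2 to 27.9 CPM in WT lines, with a 95% interval of the log2 fold change from -0.17 to 0.16. Sema4f and Sema4g had log2 fold changes of 0.32 and 0.41 at levels under 4 CPM, and Sema4a had 30 to 42 reads per library and a log2 fold change of -0.13. Sema5b, the relative of Sema5a, had a log2 fold change of -0.91 from 17 to 69 reads per library (95% interval -1.66 to -0.17, edgeR adjusted p = 0.218). Sema7a, which acts through plexin C1 and beta-1 integrin, stood at 6.30 CPM in WT3 and between 10.5 and 12.1 CPM in the other 5 lines, so its log2 fold change of 0.18 became -0.05 without WT3.

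**Figure D3:**
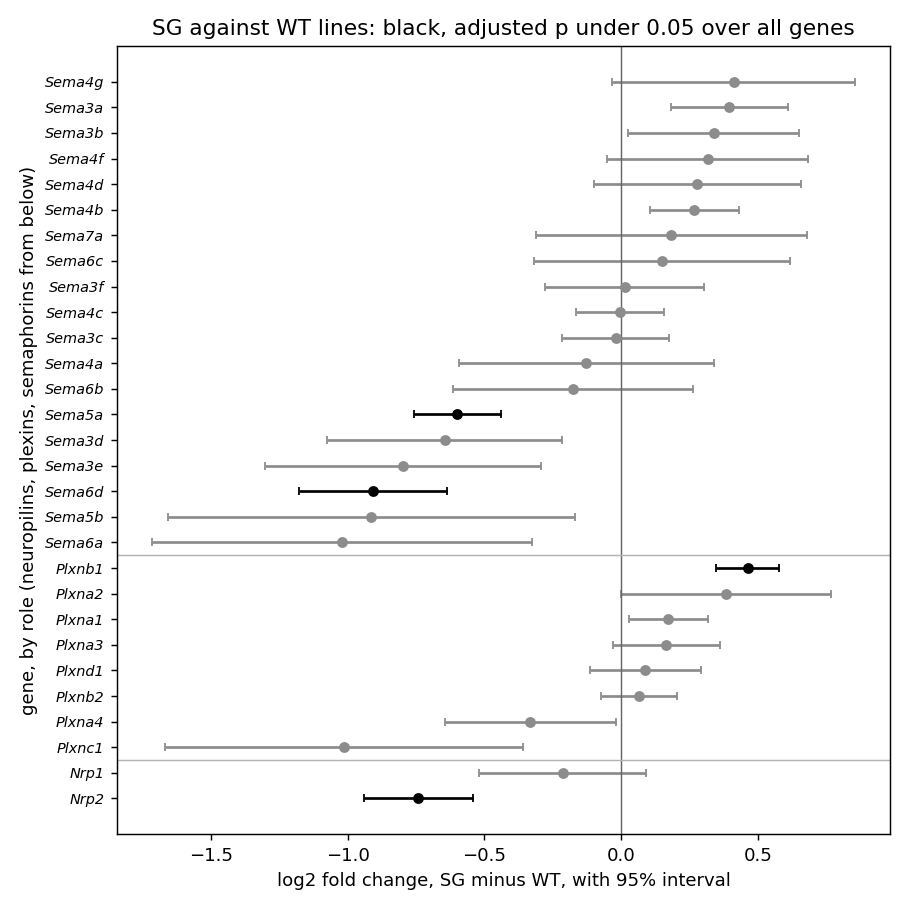
Log2 fold change (SG minus WT) with its 95% interval for the 29 tested genes, semaphorins above, plexins in the middle and neuropilins below; black marks have an adjusted p under 0.05 over all genes. Plxnb1 lies to the right of 0, and Nrp2, Sema5a and Sema6d to the left.

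Some ligands and receptors that are known to bind each other are set side by side here. For Nrp2 and Sema3f the log2 fold changes were -0.74 and 0.01, for Plxnb1 and Sema4d 0.46 and 0.28, for Plxnd1 and Sema3e 0.09 and -0.80, for Plxnc1 and Sema7a -1.01 and 0.18, for Plxna1 and Sema6d 0.17 and -0.91, and for Plxnb2 and Sema4c 0.06 and 0.00. Of these 12 values only those of Nrp2, Plxnb1 and Sema6d passed the threshold. The 95% intervals of Sema3f, Sema4d, Plxnd1, Sema7a, Plxnb2 and Sema4c held 0, so the direction of these genes is not settled. Of other known pairs, Plxna1 with Sema3a (0.17 and 0.40) and Plxna4 with Sema6a (-0.33 and -1.02) shared a sign. Plxna2 with Sema6a (0.38 and -1.02) and Nrp1 with Sema3a (-0.21 and 0.40) did not. The genes of these other pairs did not pass the threshold. The 95% intervals of Plxna2 and Nrp1 held 0, so their direction is not settled either. Per line, the plexin sum was 273 to 299 TPM in SG and 250 to 268 TPM in WT lines, and that of the semaphorins 187 to 202 and 191 to 203 TPM. Plxna1 and Plxnb2, which hold most of the plexin sum, each overlapped between genotypes and were not called.

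**Figure D4:**
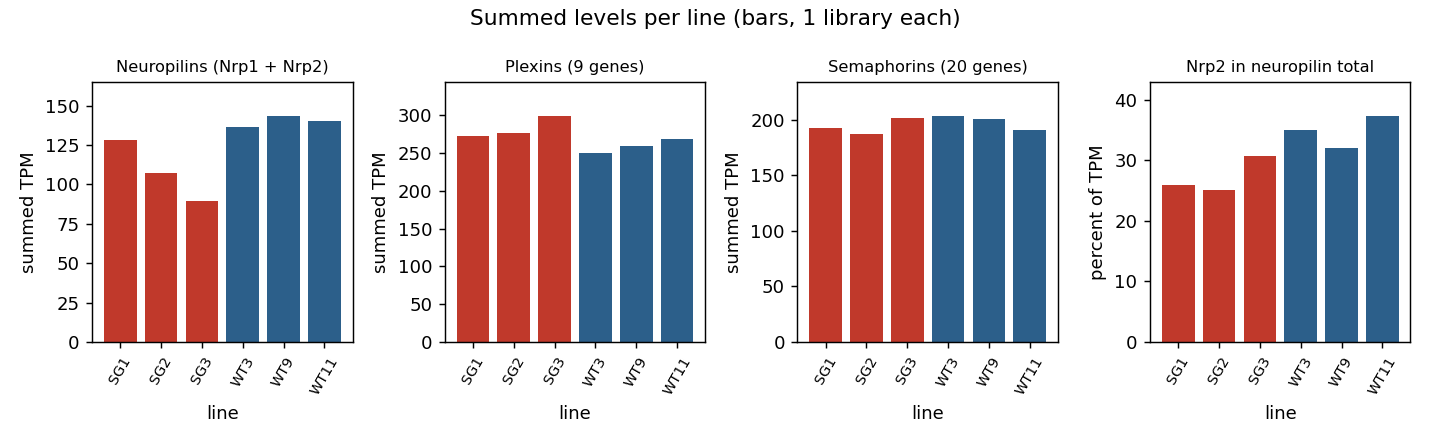
Summed TPM of the neuropilins, plexins and semaphorins, and the share of Nrp2 in the neuropilin sum, as 1 bar per line with axes from 0. The neuropilin sum is at most 128 TPM in the SG lines and at least 136 TPM in the WT lines. The plexin sum does not overlap either, with 273 TPM in the lowest SG line and 268 TPM in the highest WT line. The semaphorin sum overlaps.

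Over 79 listed co-receptors, effectors, VEGF ligands and processing proteases, 77 were tested. Of these, edgeR called 0 higher in SG and 1 lower, where over all genes it called 0.809% higher and 1.1% lower. An unadjusted edgeR p under 0.05 was reached by 23, and by 15.5% of all genes tested. DESeq2 called 5 higher and 4 lower, where over all genes it called 2.68% higher and 3.22% lower. The median log2 fold change of the 77 was 0.00 and its median absolute size 0.10, against 0.09 for all genes tested. Ptk7, a pseudokinase receptor of planar polarity that can join plexin A1, was the 1 that edgeR called lower. It stood at 263, 217 and 215 CPM in SG1, SG2 and SG3 against 313, 303 and 347 CPM in WT3, WT9 and WT11 (1.38-fold lower, log2 fold change -0.47, SE 0.09, edgeR adjusted p = 0.0437). All SG lines lay below the WT lines, and the call was lost with a robust prior, with a minimum of 1 CPM in 3 lines and without SG2, SG3, WT3 or WT11.

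Among the 45 effectors inside the cell edgeR called 0, with 13 at an unadjusted p under 0.05 (15.5% of all genes), and DESeq2 called 4 higher (Trio, Gipc1, Micall1 and Tln1) and 0 lower, beside its 2.68% and 3.22% of all genes. Gipc1, whose product binds the tail of neuropilin 1, stood at 77.1, 79.5 and 84.0 CPM in SG and 71.0, 67.1 and 71.1 CPM in WT lines (edgeR adjusted p = 0.0689). Trio, an exchange factor of the cytoskeleton, had a log2 fold change of 0.23 (edgeR adjusted p = 0.0595). The core GTPases Rac1 and Rhoa had log2 fold changes of -0.04 and 0.02. Of the 8 proteases that cleave semaphorins, 7 had log2 fold changes below 0, as had 7925 of all 16068 genes tested. Of these proteases edgeR called 0, with 4 at an unadjusted p under 0.05 (15.5% of all genes), and DESeq2 called 2 lower (3.22% of all genes). The 2 were Furin and Pcsk5. Furin, the protease that activates class 3 semaphorins, stood at 156 to 194 CPM in SG and 200 to 230 CPM in WT lines without overlap (log2 fold change -0.32, edgeR adjusted p = 0.122, DESeq2 adjusted p = 0.00626). Pcsk5, a related convertase, stood at 1.35 to 2.84 CPM in SG and 4.02 to 4.90 CPM in WT lines, also without overlap (log2 fold change -1.10, edgeR adjusted p = 0.075, DESeq2 adjusted p = 0.000715).

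Of the 5 VEGF ligands of neuropilins edgeR called 0, with 1 at an unadjusted p under 0.05 (15.5% of all genes), and DESeq2 called 1 lower, Vegfc (3.22% of all genes). Vegfc, the ligand of Nrp2 in lymphatic vessels, stood at 21.4, 19.8 and 14.3 CPM in SG1, SG2 and SG3 and at 25.2, 24.8 and 25.5 CPM in WT3, WT9 and WT11 (log2 fold change -0.44, edgeR adjusted p = 0.15). Vegfa and Vegfb had log2 fold changes of 0.12 and -0.06 and did not pass. Of the 9 fibroblast markers, 7 had log2 fold changes below 0 and 2 above, where 7925 of all 16068 genes tested were below 0. Of these markers edgeR called 1 lower (1.1% of all genes) and DESeq2 called 3 lower (3.22% of all genes). The edgeR call was Thy1, a surface glycoprotein, 1.64-fold lower in SG lines, at 264 to 309 CPM against 438 to 472 CPM (edgeR adjusted p = 0.00802). Like Nrp2 it was lower in every SG line; its part in the results was not tested.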

How the data were processed

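Per the file headers and the submitters' processing notes, the deposited values are raw counts of reads per gene, made with Trimmomatic 0.36, STAR 2.5.2b on GRCm38 and featureCounts (Subread 1.5.2). The annotation release, the strand setting and the handling of multimapping reads are not given in the sources used here. Of 49315 identifiers, 48970 had a symbol in GENCODE M21, and all 31 members were found once. Counts were fitted with edgeR 4.0.16 (R 4.3.3): filterByExpr at its defaults, TMM scaling, glmQLFit and glmQLFTest, 2-sided, SG against WT, 3 lines each, without a covariate. Adjustment was by Benjamini-Hochberg over the 16068 genes tested, and the threshold was 0.05. SE is the log2 fold change over the square root of F, and 95% intervals use the t quantile of the fit. CPM were scaled by TMM, and TPM used the length of the union of exons in the files, which understates genes with long rare exons. The fit was tested on simulated data.

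The family and the gene lists were chosen with earlier results of these data known, and the members were then taken by symbol as the whole family. The named genes are all members, plus pathway genes past the threshold. Thy1, Gipc1, Trio, Rac1, Rhoa, Arhgef11, Arhgef12, the proteases and VEGF genes given with values were chosen after their values were seen. Alternatives were RLE, upper quartile and total scaling, other count filters, a robust prior, DESeq2 1.42.0, leaving out each line, leaving out SG1 and WT9, and a term for lines with Xist. Since each line is 1 embryo, p-values reflect embryo-to-embryo spread. Litter and culture day are not given in the sources used here. Promoter sequences are from RefSeq (GRCm38.p6), with 26 of 31 members matched.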

Additional observations from a re-analysis of the deposited data

How the results depend on the processing

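No paired analysis was possible because the genotypes share only the number 3 (SG3 and WT3). Under 3 other scalings all 4 member calls were kept, as they were with a minimum of 1 CPM in 3 lines and with a robust prior. Members called higher numbered 3 without a count filter, 3 with DESeq2 and 2 without the lines with Xist, against 1; members called lower numbered 7 without a count filter and 5 with DESeq2, against 3. Leaving out 1 line gave 0 to 3 higher and 0 to 4 lower, with 0 of both without SG2, WT3 or WT11. Pathway genes called higher, 0 at first, numbered 2 without a filter, 5 with DESeq2, 2 without the lines with Xist, 1 with a term for Xist and 0 to 1 with a line left out. Those called lower, 1 at first, numbered 4 without a filter, 4 with DESeq2, 3 without the lines with Xist, 0 with a robust prior or the 1 CPM minimum and 0 to 3 with a line left out. Over all genes, calls numbered 306, and 948 with DESeq2, 959 without a filter, 703 without the lines with Xist and 3 to 579 with a line left out. The cause was not tested. Signs changed for 5 uncalled members. Sema4c (log2 fold change -0.00424 with all lines) gave 0.00567 with upper quartile scaling and 0.000701 at the 1 CPM minimum, and -0.0751 to 0.039 with a line left out. Without the lines with Xist, Sema3c gave 0.0226 and Sema6c -0.092. With a line left out, Sema3c ranged from -0.0979 to 0.0622, Sema3f from -0.142 to 0.101, Sema6c from -0.0518 to 0.305 and Sema7a from -0.0485 to 0.362. Sema3g and Plxnb3 had too few reads for a test. Sema5b and Sema4a, with under 100 reads per library, had 95% intervals of the log2 fold change of -1.66 to -0.17 and -0.59 to 0.34. Intervals were also wide in members with more reads, such as Sema6a (395 to 1534 reads per library, -1.72 to -0.32).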
